A study of Mus musculus with 12 samples.

Results

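Ion channels of 4 families were examined in W-20 cells, a mouse bone marrow stromal cell (BMSC) line: the potassium channels (gene symbols Kcn), the voltage-gated calcium channels (Cacna, Cacnb, Cacng), the voltage-gated sodium channels (Scn) and the transient receptor potential channels of the C, M and V groups (Trpc, Trpm, Trpv). The genes were taken by symbol alone among the protein-coding rows of the count matrix, which gave 156 genes of 56980 rows, auxiliary subunits included. The names Trpc4ap and Trpc5os matched the pattern although they encode no channel, and they are kept and named as such. Poly(A) RNA was sequenced in 12 libraries in 4 groups of 3. WT W-20 cells and W-20 cells of the Y428F line each received vehicle (PBS) or 50 nM PTH (parathyroid hormone) for 2 hours. The Y428F line stably expresses a Flag-tagged YAP, the transcriptional coactivator held in check by the Hippo pathway, with a tyrosine replaced by phenylalanine (Y428F). The study made the mutation in a Flag-YAP plasmid named for the CMV promoter and also lists a lentiviral PGK Puro vector. Which promoter drives the construct in the line is not settled by its text. Cells carrying the construct were selected with puromycin. Each genotype was 1 line, so the mutation cannot be told apart from anything else in which the lines differ. The titles name the line Y428F while the genotype field of those 6 libraries reads WT, and the labels give no other substitution. The study's text, however, describes the mutant line it sequenced as carrying a further YAP substitution, of a serine by alanine, in the same construct, so the effects of these changes cannot be told apart. Nothing in the labels says whether the 3 libraries of a group came from separate cultures, so p-values measure the spread between these libraries. Library totals were 17127897 to 19057319 counts.

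An ion channel lets selected ions cross a membrane through a pore formed by its principal subunits, and auxiliary subunits alter its gating and its transport to the surface. Voltage-gated potassium channels open on depolarisation, inward rectifiers and tandem-pore potassium channels hold the resting potential, calcium channels admit the ion that acts as a second messenger, and TRP channels are cation channels that answer to ligands, calcium, temperature or stretch. The PTH receptor of bone cells couples both to cyclic AMP and to phospholipase C, which releases calcium from internal stores.

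The potassium channels share a selectivity filter whose core reads threonine, any residue, glycine, tyrosine or phenylalanine, glycine. A filter of each of the 4 potassium channel pore genes on which the results below turn is shown. This makes the shared element visible beside genes that moved in different directions. For Kcnk2, a tandem-pore gene, it is the only stretch that the search below found, at codon 244 of 403. Other tandem-pore genes such as Kcnk10 gave more than 1. Each line holds 60 coding bases 5′ to 3′ (GRCm39, GENCODE vM39 canonical transcripts), and the capitals mark the 5 codons of the core.
Kcnd1 (chrX:7691174-7697441, plus strand, across the junction of exons 1 and 2 of 6): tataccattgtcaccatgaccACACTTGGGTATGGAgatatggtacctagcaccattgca
Kcnc2 (chr10:112292113-112292172, plus strand, exon 2 of 4): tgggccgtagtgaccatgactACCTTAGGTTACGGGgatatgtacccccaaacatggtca
Kcnj2 (chr11:110963012-110963071, plus strand, exon 2 of 2): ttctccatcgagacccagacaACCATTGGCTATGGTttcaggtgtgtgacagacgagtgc
Kcnk2 (chr1:188975213-188988813, minus strand, across the junction of exons 5 and 6 of 7): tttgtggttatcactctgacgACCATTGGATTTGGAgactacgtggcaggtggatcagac
The codons were searched in frame on the coding strand as ACNNNNGGNTANGGN and ACNNNNGGNTTNGGN, patterns that also admit leucine in place of phenylalanine. They occurred in 66 of 77 potassium channel pore genes (85.7%), in 276 of 21663 protein-coding genes (1.27%) and in 0 of the other 79 genes of the set. By type they occurred in 14 of 14 tandem-pore genes, 14 of 15 inward rectifiers, 33 of 40 voltage-gated pore genes and 5 of 8 calcium- or sodium-activated pore genes. Kcnh2 and Kcnn1, which are described below, gave no match to these letters.

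Of the 156 genes 57 (36.5%) could be tested. By the same rule 31.0% of all 56980 rows of the count matrix could be tested. The channel genes were drawn from protein-coding rows alone, whereas 21631 of the 56980 rows were matched as protein-coding. The percentages therefore describe unlike sets and do not show whether channel genes were detected more or less often than other protein-coding genes. All 12 libraries held 0 counts for 44 genes, another 55 genes totalled 1 to 9 counts over the 12 libraries, and the other genes reached the total of 10 counts needed for the test. A total of 0 in 12 libraries is a limit of this depth and does not show that a gene was silent. The mean over the libraries was at least 1 CPM (a gene's counts over its library size, times 1e6, with library sizes scaled by the TMM method) in 23 genes, at least 10 CPM in 10 genes and at least 100 CPM in 3 genes. Of the 40 voltage-gated potassium pore genes 10 were tested and 3 averaged 1 CPM or more (Kcnh2, Kcnd1 and Kcnc2). Kcnj2 was the 1 inward rectifier of 15 at that level, Kcnk2 the 1 tandem-pore gene of 14, and Kcnn1 the 1 calcium- or sodium-activated pore gene of 8. Of 10 calcium pore genes Cacna1a and Cacna1g reached it, and of 10 sodium pore genes Scn3a and Scn2a. Of the TRP channels Trpm7, Trpm4, Trpm5 and Trpc1 did, and none of the 6 TRPV genes.

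Levels can be compared between genes only per length, here as CPM per kilobase of the canonical transcript. Trpc4ap, an adaptor protein and not a channel, stood first at a mean of 79.2 CPM per kb over the 12 libraries (72.0 to 85.3). Cacnb3, a cytoplasmic beta subunit that binds calcium channel pores, followed at 61.1 (57.0 to 69.1). Cacng7, a membrane protein of the gamma subunit family that is best known as a partner of glutamate receptors, averaged 27.5 (14.1 to 42.3). Trpm7, a divalent cation channel fused to a protein kinase, averaged 21.04 CPM per kb (18.9 to 22.9). Cacna2d1, the extracellular alpha2delta subunit of calcium channels, averaged 12.3 (8.95 to 15.6). Trpm4, a channel for sodium and potassium that opens on internal calcium, averaged 5.85 CPM per kb. Cacna1a, the pore of P/Q-type calcium channels, averaged 5.62 (1.97 to 10.01), a mean over lines that differ: with vehicle it stood at 2.47 CPM per kb in WT cells and at 9.32 in the Y428F line, below and above Trpm4 (7.50 and 5.13), and likewise below and above Kcnh2 (5.07 and 2.44). Kcnh2 (the hERG potassium channel) averaged 3.59, Kcnmb4 (an auxiliary subunit of the large-conductance calcium-activated potassium channel) 3.13, and Kcnk2 (a tandem-pore channel sensitive to stretch and lipids) 2.39. The order thus depended on the line: with vehicle Cacng7 lay above Trpm7 in WT cells (38.8 and 20.7 CPM per kb) and below it in Y428F cells (17.8 and 19.4), and Cacna2d1 and Cacna1a, far apart in WT cells, overlapped in the Y428F libraries. Both Trpc4ap and Cacnb3 had every library above every library of the other genes.

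**Figure D1:**
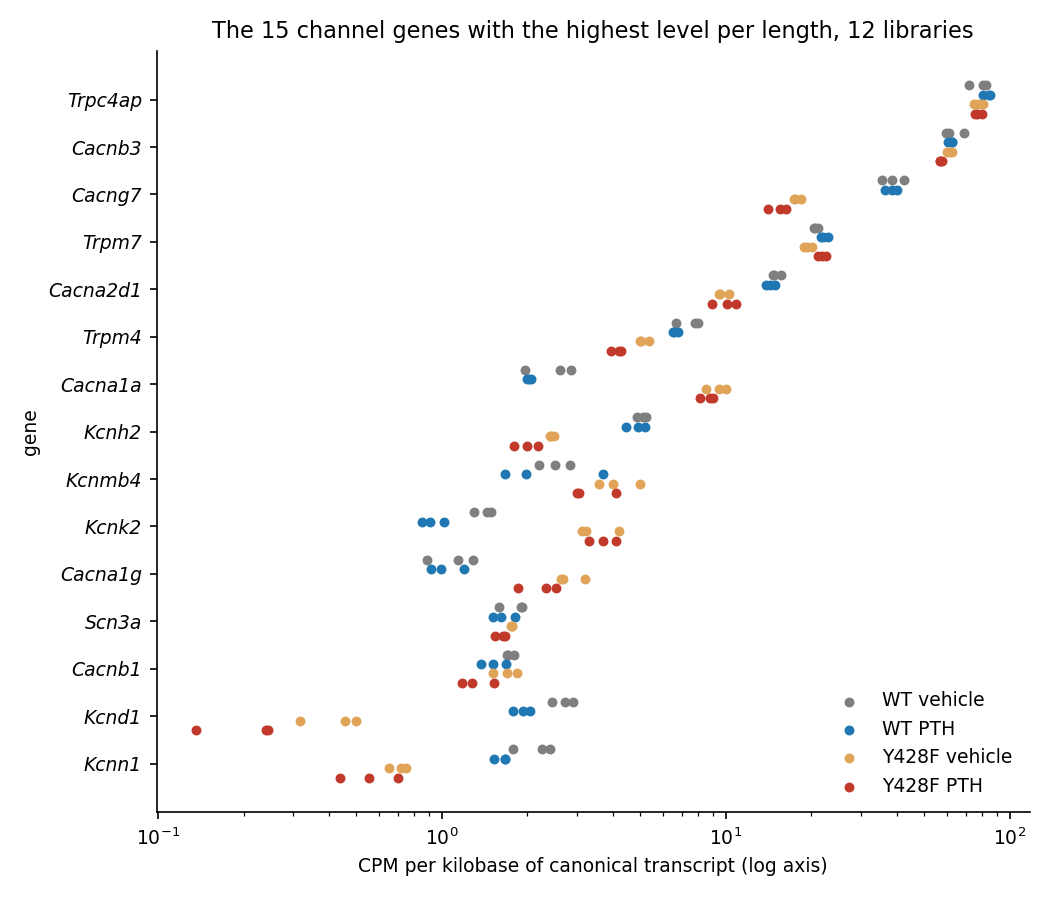
Level per length of the 15 highest channel genes, as CPM per kilobase of canonical transcript on a log axis, with 1 point per library and a colour per group (3 libraries each). Trpc4ap and Cacnb3 stand to the right of the others in all 12 libraries. The points of genes such as Cacna1a, Kcnk2, Kcnd1, Kcnn1, Cacng7, Kcnh2 and Cacna2d1 separate by line.

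The labelled cell type was checked against its markers. Col1a2 and Col1a1 were the most abundant of 10 stromal markers (12828 and 7048 CPM in WT cells with vehicle), Pdgfrb was at 618 CPM and Runx2, an early osteoblast regulator, at 90.2 CPM. Thy1 was at 0 counts in all libraries, Nt5e at 0.0379 CPM and Lepr at 0.143 CPM in WT cells with vehicle, and the mature osteoblast genes Sp7, Alpl, Ibsp and Bglap were each at or below 0.255 CPM in every group. Of the markers of cells known for these channels, Snap25 (neurons) and Myod1 and Myog (skeletal muscle) were at 0 counts in all 12 libraries, and the 6 neuronal markers together summed to 0.274 to 0.716 CPM per library.

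The first comparison asked how the channel genes of WT cells answered PTH. In WT cells 2 of the 57 tested genes were called, both downregulated, Kcnk2 and Kcnd1, and 0 were upregulated (edgeR quasi-likelihood test, Benjamini-Hochberg adjusted p under 0.05 over 17691 genes). At this rule 13.4% of all genes were called, 7.42% higher and 6.01% lower. Among genes averaging 1 CPM or more it was 2 of 23 channel genes (8.7%) beside 19.3% of all genes. At an unadjusted p under 0.05 there were 8 of 57 channel genes and 25.3% of all genes. Kcnk2 (ENSMUSG00000037624.16, chr1:188940126-189134470, minus strand) read 5.235, 5.402 and 4.722 CPM with vehicle and 3.30, 3.69 and 3.09 CPM with PTH. The groups did not overlap, and the mean fell from 5.12 ± 0.355 to 3.36 ± 0.306 CPM (SD, n = 3), a log2 fold change of −0.61 (SE 0.16, edgeR adjusted p = 0.0154). Kcnd1 (ENSMUSG00000009731.5, chrX:7688528-7704519, plus strand), the pore of a rapidly inactivating A-type potassium channel, read 13.0, 15.4 and 14.4 CPM with vehicle and 9.43, 10.8 and 10.2 CPM with PTH. Here too the groups did not overlap, and the log2 fold change was −0.48 (SE 0.14, edgeR adjusted p = 0.022). Both calls were thin: the edgeR adjusted p of Kcnk2 was 0.0613 without WT vehicle replicate 2, 0.0531 without WT PTH replicate 1 and 0.054 without WT PTH replicate 3, and that of Kcnd1 was 0.104, 0.072 and 0.0992 without WT vehicle replicate 2, WT vehicle replicate 3 and WT PTH replicate 1. Without WT PTH replicate 1 the count of downregulated genes was 0, and without WT vehicle replicate 1 it was 5. At adjusted p under 0.01 with a log2 fold change beyond 0.3, 0 channel genes were called higher or lower, beside 3.63% and 2.44% of all genes. Overlapping non-coding genes on the opposite strand share exon bases with both genes, and whether the libraries kept strand is not settled by the sources.

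The same question in Y428F cells gave 4 called genes of 57, of which 2 were upregulated and 2 downregulated, against 12.4% of all genes (6.61% higher, 5.78% lower). All 4 averaged 1 CPM or more, where they were 17.4% of 23 channel genes beside 17.9% of all genes. Kcnd1 read 2.63, 1.67 and 2.40 CPM with vehicle and 0.721, 1.29 and 1.27 CPM with PTH, and the groups did not overlap. The log2 fold change of −1.02 (SE 0.24, edgeR adjusted p = 0.00615) stayed past the threshold when any 1 library was left out (edgeR adjusted p 0.00313 to 0.0408). Trpm4 (ENSMUSG00000038260.11, chr7:44949126-44983986, minus strand) read 26.9, 25.2 and 25.1 CPM with vehicle and 21.1, 21.4 and 19.8 CPM with PTH. The 3 PTH libraries lay below the 3 vehicle libraries, with a log2 fold change of −0.31 (SE 0.082, edgeR adjusted p = 0.0153). Kcnj2 (ENSMUSG00000041695.3, chr11:110956981-110967665, plus strand), a strong inward rectifier, rose from 4.49, 4.90 and 5.08 CPM to 7.65, 7.58 and 6.55 CPM. It was the largest upregulation among the called genes, at a log2 fold change of 0.59 (SE 0.18, edgeR adjusted p = 0.0387). Trpm7 (ENSMUSG00000027365.15, chr2:126633480-126718182, minus strand) read 143, 137 and 134 CPM with vehicle and 150, 161 and 156 CPM with PTH. The groups did not overlap but the rise was small, at a log2 fold change of 0.17 (SE 0.052, edgeR adjusted p = 0.0368).

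Of these 4 calls, that of Kcnj2 was lost without Y428F vehicle replicate 1, 2 or 3 or without Y428F PTH replicate 1 or 2 (edgeR adjusted p 0.0758 to 0.13), and that of Trpm7 without Y428F vehicle replicate 2 or 3 or Y428F PTH replicate 2 or 3 (0.0913 to 0.136). That of Trpm4 was lost without Y428F vehicle replicate 1 (0.0769) or Y428F PTH replicate 3 (0.0692). At adjusted p under 0.01 with a log2 fold change beyond 0.3, Kcnd1 alone was called, so 0 were higher and 1 lower beside 3.02% and 2.3% of all genes. With no scaling beyond library totals, Trpm7 and Kcnj2 were not called (edgeR adjusted p = 0.107 and 0.0542). The 2 downregulated genes became 5 at that setting, 4 with no filter on low counts, 4 with a replicate block, 4 without WT vehicle replicate 1 or Y428F PTH replicate 2, and 1 without Y428F vehicle replicate 1. The 2 upregulated genes became 0 without Y428F vehicle replicate 2 or 3 or Y428F PTH replicate 2.

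**Figure D2:**
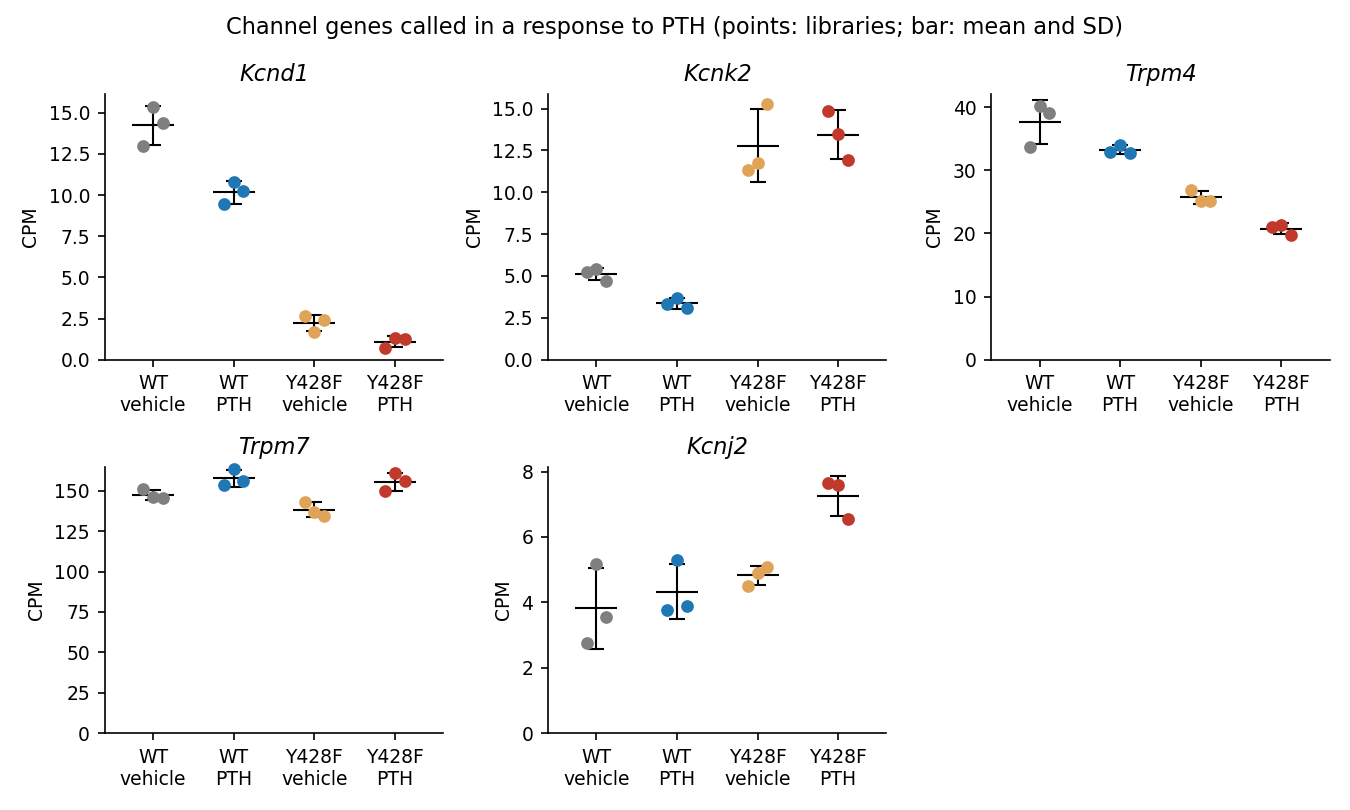
CPM of the 5 channel genes called in a response to PTH, with 1 point per library and bars at the mean and SD of 3 libraries per group, each y axis starting at 0. Kcnd1 is lower with PTH in both lines, Kcnk2 in WT cells, Trpm4 in Y428F cells, and Trpm7 and Kcnj2 are higher with PTH in Y428F cells.

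Whether the responses themselves differed between the lines was tested by the interaction of line and PTH. None of the 57 genes was called (0 of 57, with 0.413% of all genes called, 73 of 17691), and 1 channel gene, Kcnk2, had an unadjusted p under 0.05, against 7.05% of all genes. DESeq2 also called 0. Kcnk2 changed by −0.61 with PTH in WT cells and by 0.07 in Y428F cells, in which it read 11.3, 11.7 and 15.3 CPM with vehicle and 14.9, 13.5 and 12.0 CPM with PTH. The difference was 0.68 on the log2 scale (SE 0.20, edgeR adjusted p = 0.285). For Kcnd1 the difference was −0.54 (SE 0.27, edgeR adjusted p = 0.758), for Kcnj2 0.41 (SE 0.27, 0.838), for Trpm4 −0.13 (SE 0.11, 0.883) and for Trpm7 0.07 (SE 0.074, 0.905). In WT cells Trpm4 had changed by −0.18, Trpm7 by 0.10 and Kcnj2 by 0.18, none of them called. A gene called in 1 line and not in the other is therefore not shown to differ in its response.

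Among the 23 genes averaging 1 CPM or more, 20 had a log2 fold change below 0 after PTH in WT and 18 in Y428F cells. Their medians were −0.13 and −0.21, beside −0.0113 and −0.000128 over the 12038 genes of all kinds at that level. The medians stayed below 0 under every alternative run, which included other scalings and leaving out any 1 library, from −0.18 to −0.09 in WT cells and from −0.27 to −0.15 in Y428F cells. Most of these shifts were small and did not pass the test gene by gene. Kcnn1, the pore of a small-conductance calcium-activated potassium channel, read 8.73, 11.0 and 11.8 CPM with vehicle and 7.49, 8.18 and 8.15 CPM with PTH in WT cells (edgeR adjusted p = 0.0702). In bulk RNA, fewer cells of a type and less RNA per cell cannot be told apart. Smooth muscle markers moved with PTH, where 2 of 5 rose in both lines, beside 7.42% of all genes higher in WT and 6.61% in Y428F cells. Acta2 read 107 CPM with vehicle and 487 with PTH in WT cells, and 129 and 290 in Y428F cells, and Cnn1 rose as well. Myh11, a defining gene of mature smooth muscle, stayed at or below 0.279 CPM in each group. Acta2 and Cnn1 also passed the test of the difference in response, rising less in Y428F cells (−1.02, edgeR adjusted p = 7.3e-05, and −1.33, edgeR adjusted p = 0.000222), which makes 2 of 5 markers beside 0.413% of all genes and 0 of 57 channel genes. The summed level of the list was 245 to 264 CPM in the WT libraries with vehicle and 657 to 679 CPM with PTH, and 238 to 260 and 387 to 417 CPM in the Y428F libraries. Of 8 tested stromal markers PTH lowered 3 in WT cells (median −0.11, with 6.01% of all genes lower) and 2 in Y428F cells (median −0.21, with 5.78% of all genes lower), and 0 were higher. Their summed level was 19940 to 23530 CPM with vehicle and 19630 to 22680 CPM with PTH in the WT libraries, which overlap, and 13770 to 14820 and 10270 to 12990 CPM in the Y428F libraries, which do not. The list was led by Col1a2, with Thy1 at 0 counts. The part of the smooth muscle and stromal genes in the channel results was not tested.

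**Figure D3:**
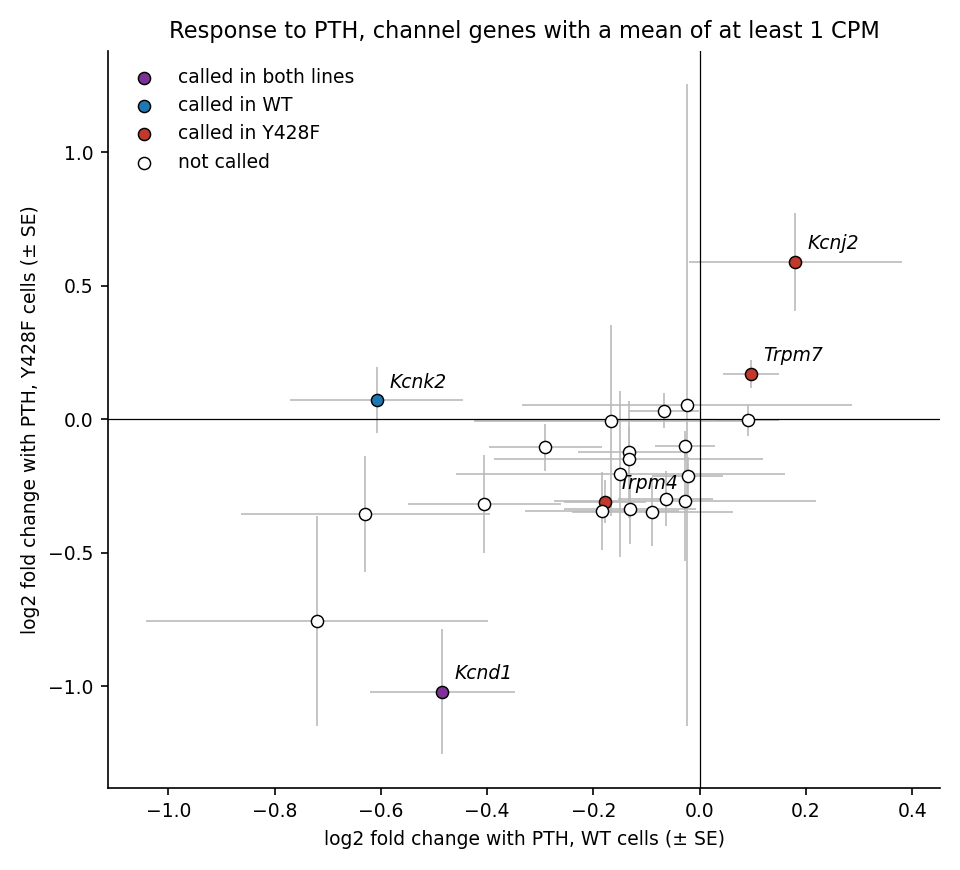
Log2 fold change after PTH for WT (x axis) and Y428F cells (y axis), drawn for the 23 channel genes averaging 1 CPM or more, with bars of 1 SE and colours for the genes called in each line. Most points lie below 0 on both axes, Kcnd1 is the 1 gene called in both lines and Kcnj2 lies highest.

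The comparison of the lines gave larger differences. With vehicle, 19 of the 57 genes differed between Y428F and WT cells, of which 5 were higher and 14 lower in Y428F cells. At the same rule 45.1% of all genes were called, 22.4% higher and 22.7% lower, so the share of channel genes (33.3%) was below that of all genes, while among genes averaging at least 1 CPM it was 15 of 23 (65.2%) beside 59.6%. With PTH, 22 of 57 were called, 7 higher and 15 lower, beside 45.7% of all genes (22.8% higher, 23.0% lower), and 15 of 23 at 1 CPM or more beside 60.2%. The comparisons with vehicle and with PTH use different libraries of the same lines, and their values are given side by side.

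Of the 6 calcium channel pore genes tested, 2 were higher and 1 was lower in Y428F cells with vehicle, beside 22.4% and 22.7% of all genes. These counts are not read as a result about the family, and the genes are described singly. Cacna1a (ENSMUSG00000034656.19, chr8:85065224-85367997, plus strand) read 25.7, 17.8 and 23.7 CPM in vehicle-treated WT libraries and 85.6, 76.8 and 90.6 CPM in the matching Y428F libraries, and 18.04, 18.27 and 18.69 against 81.6, 73.7 and 79.7 CPM with PTH. Every Y428F library lay above every WT library, with log2 fold changes of 1.91 (SE 0.096, edgeR adjusted p = 1.41e-12) and 2.10 (SE 0.099, edgeR adjusted p = 5.81e-13). Cacna1g (chr11:94299217-94365230, minus strand), the pore of a low-voltage-activated T-type channel, rose from 7.40, 10.7 and 9.50 CPM to 21.9, 26.7 and 22.3 CPM with vehicle, at a log2 fold change of 1.36 (SE 0.14, edgeR adjusted p = 5.57e-08). Cacna1c (chr6:118564201-119173851, minus strand), the pore of the L-type channel of heart and smooth muscle, went the other way. It had 26, 38 and 18 counts in WT cells with vehicle and 0, 0 and 1 count in Y428F cells, a ratio of 83.8 (95% exact conditional interval 14.6 to 3350, counting error only; edgeR adjusted p = 3.6e-06). The 1 count came from Y428F vehicle replicate 3. Cacna1c met the count filter through the WT libraries alone, so its adjusted p is not read as support for a difference. The fitted log2 fold change with vehicle, which is no bound, was −5.93 and ran from −7.75 to −5.45 with 1 library left out. With PTH Cacna1c had 21, 37 and 21 counts in WT cells and 0 in the 3 Y428F libraries. That is at least 28.2-fold lower when the Y428F group is set at a floor of 3 counts over its libraries. Summed over the 10 pore genes, the vehicle level was 33.8 ± 2.10 CPM for WT and 109 ± 4.34 CPM for Y428F (SD, n = 3), most of it Cacna1a. A second T-type pore gene, Cacna1h, held 12 counts over the WT and 2 over the Y428F libraries with vehicle, and 10 and 0 with PTH. Without the WT libraries Cacna1h, too, would not have met the count filter. Its call with PTH (edgeR adjusted p = 0.0162, and 0.0949 with vehicle) is therefore not read further. The difference in response was not called (edgeR adjusted p = 0.864).

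The auxiliary subunits of calcium channels were lower or did not pass the test. Cacng7 (chr7:3380237-3416738, plus strand) read 112, 133 and 121 CPM in vehicle-treated WT cells and 54.7, 57.9 and 55.4 CPM in their Y428F counterparts, and the log2 fold change was −1.13 (SE 0.069, edgeR adjusted p = 3.58e-11). Cacna2d1 (chr5:16139372-16579509, plus strand) read 114, 121 and 114 against 79.5, 73.4 and 73.8 CPM, a log2 fold change of −0.62 (SE 0.066, edgeR adjusted p = 1.14e-07). Both genes kept the lines apart with PTH as well, at −1.32 and −0.52. Cacnb4, a further beta subunit, was lower at −1.59 with vehicle and −2.35 with PTH from 48 and 54 WT counts. The PTH value was −3.21 without Y428F PTH replicate 2 and −1.92 without Y428F PTH replicate 3, and the vehicle call was lost without WT vehicle replicate 1 or 2 or Y428F vehicle replicate 2 (edgeR adjusted p 0.0575 to 0.101). Cacng8 was called lower with PTH (−1.99, edgeR adjusted p = 0.00995) and not with vehicle (−0.94, edgeR adjusted p = 0.165), and the difference in response was not called (−1.04, edgeR adjusted p = 0.872). For Cacnb3, the most abundant of them, the log2 difference was −0.04 with vehicle (SE 0.056, edgeR adjusted p = 0.562) and −0.12 with PTH (SE 0.057, edgeR adjusted p = 0.0999).

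**Figure D4:**
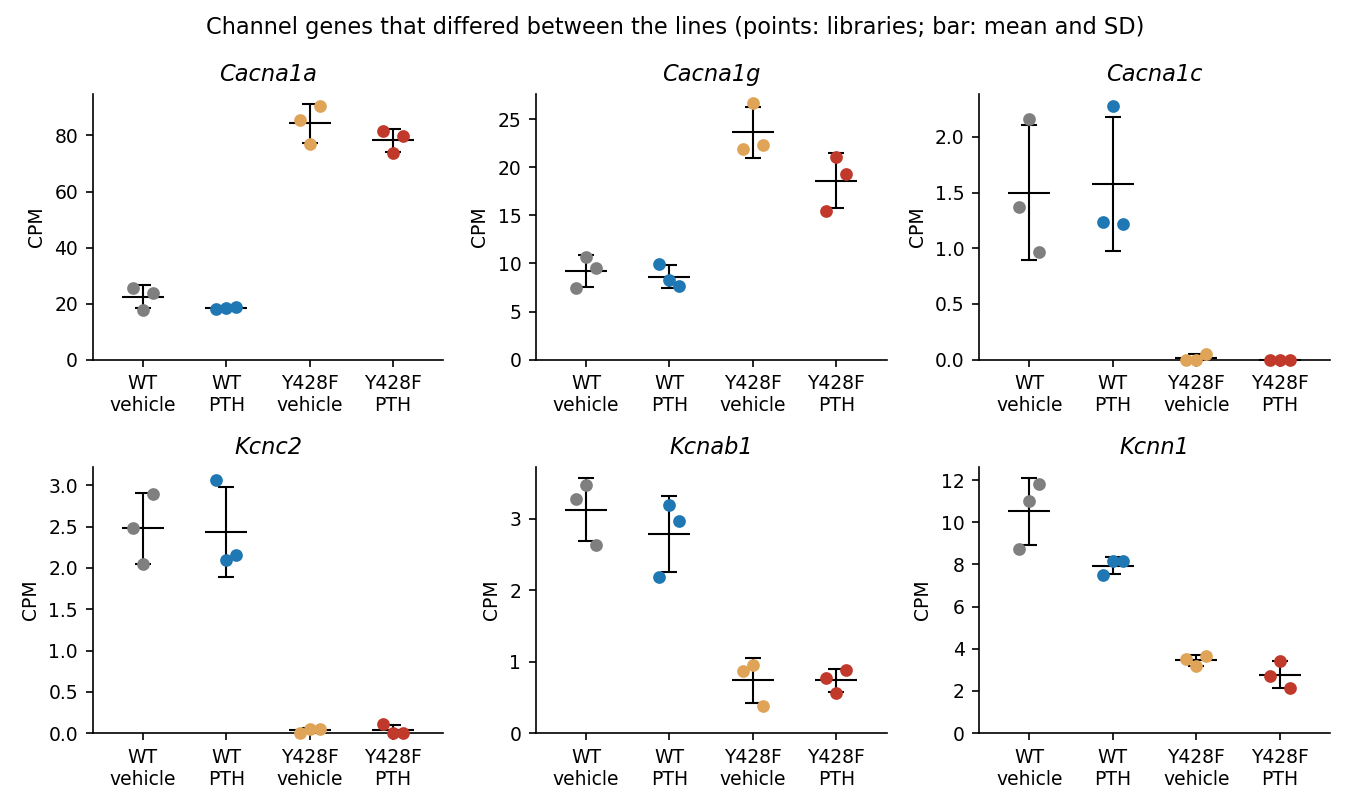
CPM of 6 channel genes that differed between the lines, with 1 point per library and bars at the mean and SD of 3 libraries per group, each y axis starting at 0. Cacna1a and Cacna1g are higher in all 6 Y428F libraries than in all 6 WT libraries, and Cacna1c, Kcnc2, Kcnab1 and Kcnn1 are lower.

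Of the 10 voltage-gated potassium pores tested, 4 genes were lower in Y428F cells with vehicle and none was higher, beside 22.7% and 22.4% of all genes. Kcnd1, which PTH lowered in both lines, was among them. Its vehicle values given above set 2.23 ± 0.502 CPM in the mutant line beside 14.2 ± 1.21 CPM in WT (SD, n = 3), a log2 fold change of −2.67 (SE 0.16, edgeR adjusted p = 3.4e-11), and with PTH the difference was −3.21 (SE 0.19). Kcnc2 (chr10:112105226-112302929, plus strand), the pore of a fast delayed rectifier of fast-firing neurons, had 47, 36 and 54 counts in WT cells and 0, 1 and 1 count in Y428F cells with vehicle. The ratio was 70.0 (95% exact conditional interval 19 to 584; edgeR adjusted p = 3.85e-08), and with PTH, from 52, 34 and 37 counts in WT and 2, 0 and 0 in Y428F cells, it was 65.9 (17.9 to 550). Both of those 2 counts came from Y428F PTH replicate 1, without which the group held 0 counts and the fitted log2 fold change, then no bound, moved from −5.80 to −8.47. Kcnc2 met the count filter through the WT libraries alone, so its adjusted p is not read as support for a difference. Kcnh2 (chr5:24524567-24556762, minus strand) read 22.6, 21.4 and 23.0 CPM in WT cells and 10.7, 11.0 and 10.6 CPM in Y428F cells, a log2 fold change of −1.05 (SE 0.094, edgeR adjusted p = 9.71e-09). Summed over the 40 genes, the vehicle level was 41.0 ± 1.04 CPM for WT and 15.5 ± 0.569 CPM for Y428F (SD, n = 3).

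The other potassium channels did not move as a block. Kcnk2 was higher in Y428F cells, at 11.3, 11.7 and 15.3 CPM against 5.235, 5.402 and 4.722 CPM with vehicle, a log2 fold change of 1.32 (SE 0.14, edgeR adjusted p = 7.56e-08), and with PTH the difference was 2.00 (SE 0.15, edgeR adjusted p = 5.07e-10). Kcnn1 (chr8:71294693-71316409, minus strand) was lower, at 3.505, 3.185 and 3.658 against 8.73, 11.0 and 11.8 CPM, a log2 fold change of −1.61 (SE 0.16, edgeR adjusted p = 3.63e-08). Kcnj2 did not pass the test with vehicle (0.34, SE 0.20, edgeR adjusted p = 0.169) and was higher with PTH, at 7.65, 7.58 and 6.55 CPM against 3.77, 5.29 and 3.90 CPM (0.75, SE 0.19, edgeR adjusted p = 0.00244). Of the cytoplasmic beta subunits of voltage-gated potassium channels, Kcnab1 was lower (−2.06, from 3.13 ± 0.440 to 0.740 ± 0.312 CPM) and Kcnab3 higher (0.88, from 2.04 ± 0.787 to 3.78 ± 0.170 CPM) with vehicle (SD, n = 3; edgeR adjusted p = 8.23e-06 and 0.00341). Kcnmb4 was higher with vehicle (0.74, edgeR adjusted p = 0.012) and not called with PTH (0.46, edgeR adjusted p = 0.126), and the difference in response was not called (−0.28, edgeR adjusted p = 0.929). Its vehicle call was lost without WT vehicle replicate 3 (edgeR adjusted p = 0.0532) or Y428F vehicle replicate 1 (0.0802). Non-coding genes annotated on the opposite strand share exon bases with Kcnab1, Kcnab3, Kcnmb4, Kcnn1 and Kcnc2, as with Cacna1a, Cacna1g and Cacng7, and in all 30 of the 57 tested genes overlap an exon of another gene.

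Of the sodium channels, the pore gene Scn2a was lower in Y428F cells with vehicle, at 10.4, 8.80 and 7.37 against 13.3, 11.4 and 11.6 CPM (−0.46, SE 0.13, edgeR adjusted p = 0.00494). Scn3a, the most abundant sodium pore, stood at 17.5 ± 1.80 CPM for WT and 17.1 ± 0.109 CPM for Y428F with vehicle (SD, n = 3), and the log2 difference was −0.04 (SE 0.095, edgeR adjusted p = 0.788). Scn1a held 0 counts in the WT libraries and, over the Y428F libraries, 4 counts with vehicle and 11 with PTH. It met the count filter through the Y428F libraries alone. Its call with PTH (edgeR adjusted p = 0.0358, and 0.159 with vehicle) is therefore not read further. The difference in response could not be estimated, because the WT groups held 0 counts.

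Among the TRP channels both genes called were lower in Y428F cells, and both open on internal calcium and pass sodium and potassium. Trpm4 read 33.6, 40.1 and 39.1 CPM in the WT vehicle libraries and 26.9, 25.2 and 25.1 CPM in those of Y428F, a log2 fold change of −0.55 (SE 0.078, edgeR adjusted p = 6.63e-06), and −0.68 with PTH. Trpm5, a channel of taste cells, read 1.22, 2.96 and 2.52 CPM against 1.15, 0.859 and 0.819 CPM (−1.24, SE 0.33, edgeR adjusted p = 0.00429). Trpm7 was not called between the lines (−0.09, SE 0.052, edgeR adjusted p = 0.16 with vehicle). None of the 2 TRPC channels and 4 TRPV channels tested was called in any comparison. Of all genes 45.1% and 45.7% were called between the lines, with vehicle and with PTH, and 13.4% and 12.4% for PTH in WT and Y428F cells. Trpc1 alone of these channels averaged 1 CPM or more, so the lack of calls is not read as a result about them.

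**Figure D5:**
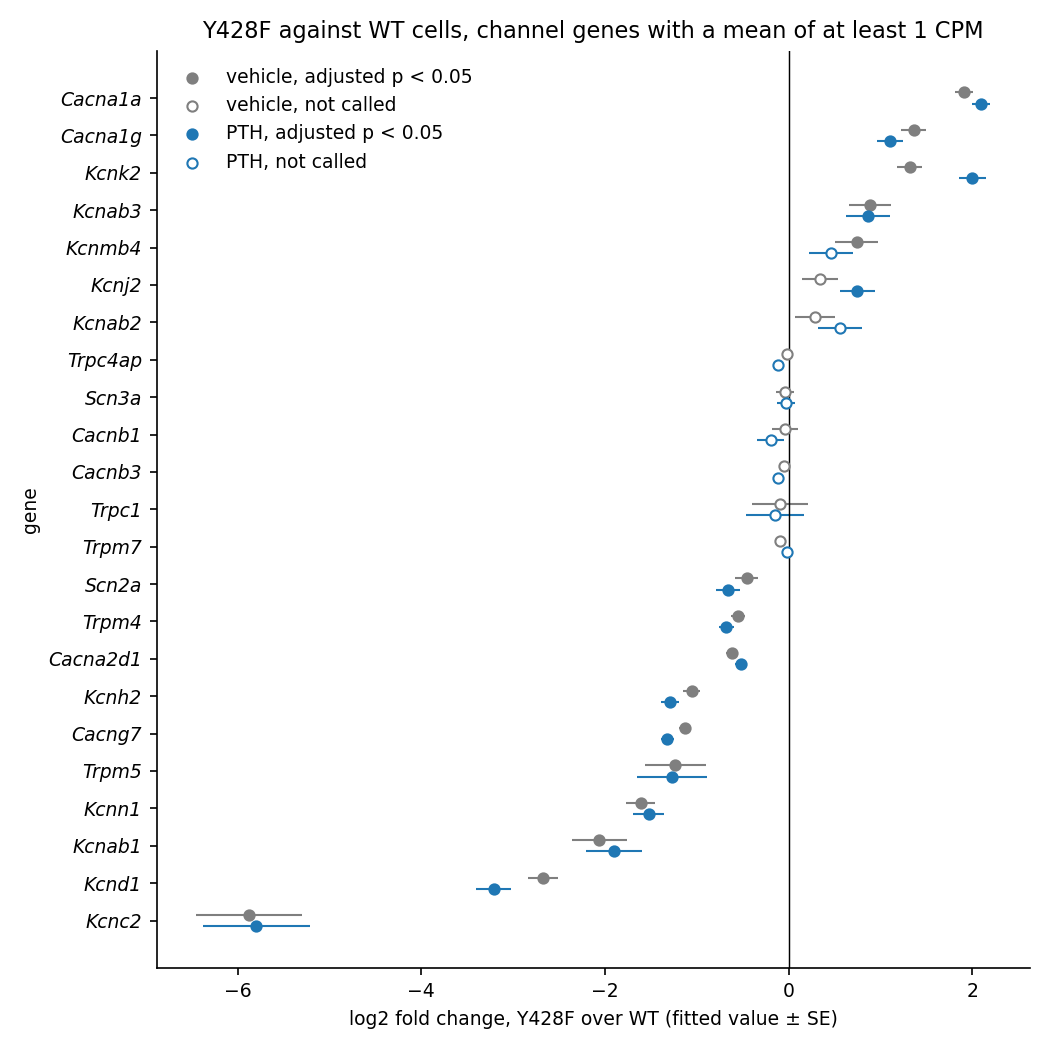
Log2 fold change of Y428F over WT cells with vehicle (grey) and with PTH (blue) for the 23 channel genes averaging 1 CPM or more, with bars of 1 SE and filled points for adjusted p under 0.05. Cacna1a, Cacna1g and Kcnk2 lie highest and Kcnc2, Kcnd1 and Kcnab1 lowest.

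Cell markers differed between the lines as well. Of all genes 45.1% were called between the lines with vehicle, 22.4% higher and 22.7% lower in Y428F cells. The endothelial, osteoblast and adipocyte lists had 1 call each with vehicle, a smaller share of their tested genes than that of all genes. With vehicle 7 of 8 tested stromal markers were lower in Y428F cells, among them Pdgfra (95.2 to 31.6 CPM), Pdgfrb (618 to 217) and Vcam1 (158 to 46.6), and Lepr was higher (0.143 to 1.03). The summed level of the 10 stromal markers was 19940 to 23530 CPM in the WT and 13770 to 14820 CPM in the Y428F libraries with vehicle, led by Col1a2. Of 4 endothelial markers Cdh5 was higher (0.810 to 7.95 CPM) with Pecam1 at 0.247 and Kdr at 0.0885 CPM in Y428F cells, and of 5 haematopoietic markers Ptprc (0.853 to 2.79) and Lyz2 (0.503 to 3.04) were higher with Adgre1 at 0 counts in Y428F cells with vehicle. The adipocyte gene Fabp4 was lower (26.9 to 6.57) with Adipoq at 0 counts. The summed levels with vehicle were 0.910 to 1.77 CPM in WT and 7.94 to 9.94 CPM in Y428F libraries for the endothelial list, 1.77 to 2.43 and 5.81 to 7.34 CPM for the haematopoietic list, and 23.5 to 33.9 and 6.35 to 7.59 CPM for the adipocyte list. Ttn, the 1 tested gene of 5 skeletal muscle markers, was higher (1.85 to 3.49). Of 3 tested osteoblast markers Runx2 was lower (90.2 to 73.2 CPM), and the list, which it led, summed to 82.4 to 95.9 CPM in WT and 72.6 to 74.5 CPM in Y428F libraries with vehicle. Of 5 smooth muscle markers Acta2 and Des were higher and Smtn lower with vehicle. With PTH 1 of these 5 was higher and 3 were lower, beside 22.8% and 23.0% of all genes. The part of these genes in the channel results was not tested either. By chromosome, the median log2 difference of genes averaging at least 1 CPM ran from −0.23 to 0.25 between the lines with vehicle.

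Channels stand beside pumps, stores and other cation channels in the handling of these ions, and these were counted from separate lists. Of the 25 genes of calcium stores and pumps, 23 were tested, and PTH changed 6 in WT cells (4 higher, 2 lower) and 3 in Y428F cells (2 higher, 1 lower), that is 26.1% and 13.0% of those tested beside 13.4% and 12.4% of all genes. Atp2b1, a plasma membrane calcium pump, rose from 88.9 to 130 CPM in WT cells (0.55, SE 0.070, edgeR adjusted p = 1.65e-05) and from 120 to 144 CPM in Y428F cells (0.26, SE 0.069, edgeR adjusted p = 0.0161). Stim2, a calcium sensor of the endoplasmic reticulum, rose by 0.29 in both lines (edgeR adjusted p = 0.0075 and 0.00887). Orai3, a pore of store-operated entry, fell by 0.41 in WT and by 0.61 in Y428F cells (edgeR adjusted p = 0.00183 and 5.99e-05), and Orai2 fell by 0.42 in WT cells (edgeR adjusted p = 0.00211). Atp2a2, the calcium pump of the endoplasmic reticulum, rose by 0.28 in WT cells (edgeR adjusted p = 0.0103). Between the lines with vehicle, 6 of these genes were higher and 7 lower in Y428F cells (56.5% of those tested, beside 45.1% of all genes), with Atp2a3 (0.90), Atp2b4 (−0.85), Slc8a3 (−0.82) and Orai2 (−0.65) differing most.

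Of 25 other cation channels 15 were tested, and PTH changed 1 in each line (6.67%, beside 13.4% of all genes in WT and 12.4% in Y428F cells). It raised Tmem63a, a stretch-activated channel, in WT cells (64.9 to 88.2 CPM, 0.44, edgeR adjusted p = 0.00043) and lowered Asic1, a proton-gated channel, in Y428F cells (6.00 to 4.20 CPM, −0.51, edgeR adjusted p = 0.0368). With vehicle 3 were higher and 7 lower in Y428F cells (66.7%, beside 45.1% of all genes). Nalcn, the sodium leak channel, rose from 0.277 to 4.67 CPM (4.06, SE 0.40, edgeR adjusted p = 4.57e-08), a wider rise than that of Cacna1a. Piezo2, a mechanically gated channel, rose from 1.66 to 6.33 CPM (1.92), Scnn1a, a subunit of the epithelial sodium channel, fell from 6.87 to 2.93 CPM (−1.22), and Pkd1, a polycystin, fell from 590 to 356 CPM (−0.73). The median log2 difference of the list was −0.24, beside 0.01 over all genes tested.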

How the data were processed

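The authors aligned the reads with STAR 2.7.10b to GRCm39 (GENCODE basic annotation) and deposited RSEM expected counts per gene, which were rounded to whole numbers here. Row identifiers were matched to GENCODE vM39 without version (56236 of 56980 matched, 744 not), which gave symbols, coordinates and canonical transcript lengths. Genes with at least 10 counts over the 12 libraries (17691) were fitted with edgeR 4.0.16 (R 4.3.3), TMM scaling and 1 mean per group, by the quasi-likelihood test, and p was adjusted over all of them after Benjamini and Hochberg. A call is an adjusted p under 0.05. The filter used all groups together. DESeq2 1.42.0 and other settings were alternatives. The fit was tested on simulated data. The members and gene lists were chosen with earlier results of these data known. Named were genes called for PTH, genes called between the lines at 1 CPM or more (up to 25 a comparison), the 10 highest per length, list genes called for PTH and the 4 of each list that differed most between the lines. Other names come from counts of 5 or fewer or were chosen after their values were seen. Some genes that the rule names are not reported here. Intervals cover counting error only.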

Additional observations from a re-analysis of the deposited data

How the results depend on the processing

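Alternatives were run for the 10 counts of called channel genes and for the named channel genes in the comparisons that called them, with the difference in response of the 5 genes called for PTH, and none of those gene values reversed. Alternatives were not run for list genes, markers and the other channel genes. Over the 23 genes at 1 CPM or more, the median difference in response was −0.03 and turned to 0.05 without WT vehicle replicate 1. In the PTH response of WT cells the 2 downregulated genes became 4 with library totals only and 0 at adjusted p under 0.01 with a log2 fold change beyond 0.3, and leaving out 1 library gave 0 to 5. In Y428F cells the 2 upregulated genes became 0 with library totals only, 1 with no filter on low counts and 0 at the stricter rule, and 0 to 2 with 1 library left out. The 2 downregulated genes became 5 with library totals only, 4 with no filter, 4 with the 6 libraries of the line alone, 1 at the stricter rule, and 1 to 4 with 1 library left out. The replicate block raised them to 4. The other 7 counts stayed within 1.5 times under every alternative. Leaving out 1 library gave 4 to 6 higher and 13 to 15 lower genes between the lines with vehicle, 5 to 8 and 14 to 17 with PTH, and 0 for the difference in response. Library totals moved the median of all genes by less than 0.1 on the log2 scale. Samples of the same replicate number did not deviate together (mean correlation 0.0019, −0.0311 to 0.0371 over 18 pairs), so the numbers were not taken as pairs. Between the lines DESeq2 called 19 and 20 channel genes, edgeR 19 and 22. The 2 libraries left in a group with 1 left out are assumed to vary like the others.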

Other observations

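Pumps and signalling genes around the channels were listed as well. Of 14 sodium pump genes 7 were tested, of which PTH raised 2 in WT cells and 1 in Y428F cells and lowered 0 (28.6% and 14.3%, beside 13.4% and 12.4% of all genes). Atp1b3, a beta subunit, rose with PTH in both lines (0.24 and 0.23 on the log2 scale, edgeR adjusted p = 0.00461 and 0.00739). Between the lines with vehicle 2 were higher and 3 lower in Y428F cells (71.4%, beside 45.1% of all genes), and among the lower ones were the regulators Fxyd1 (4.14 to 0.376 CPM, −3.45) and Fxyd5 (33.4 to 22.9 CPM, −0.54).

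Of 12 phospholipase C genes 11 were tested, of which PTH lowered 1 in WT cells and 2 in Y428F cells and raised 0. That is 9.09% and 18.2%, beside 13.4% and 12.4% of all genes. Plcd3 fell with PTH by 0.79 in WT cells and by 0.39 in Y428F cells (edgeR adjusted p = 6.1e-07 and 0.00217; difference 0.212), and Plcd1 fell by 0.30 in Y428F cells (edgeR adjusted p = 0.0216). With vehicle 6 of them were lower and 0 higher in Y428F cells (54.5%, beside 45.1% of all genes), with Plcg2 (−1.81), Plcd1 (−0.93), Plcb4 (−0.63) and Plcb1 (−0.50) differing most. Of 15 calcineurin and NFAT genes 14 were tested, and PTH changed 7.14% of these in WT cells and 14.3% in Y428F cells, beside the same 13.4% and 12.4%. Ppp3r1, the calcium-binding subunit of calcineurin, rose with PTH in both lines (0.33 and 0.19, edgeR adjusted p = 0.000292 and 0.021), and Ppp3cc fell in Y428F cells (−0.67, edgeR adjusted p = 0.0348). Between the lines with vehicle 5 were higher and 6 lower in Y428F cells (78.6%, beside the same 45.1%). Rcan2, an inhibitor of calcineurin, was higher (1.39 to 5.61 CPM, 2.01), and Nfatc4 (−1.36), Ppp3ca (−0.65) and Nfatc1 (−0.45) were lower.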
